A study of Oryza sativa with 12 samples.

Results

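Cytochrome P450 genes were followed in crowns of rice plants grown without or with zinc. The set holds every locus whose annotation note contains the words cytochrome P450, apart from 3 loci noted as P450 reductase and 2 P450 loci of the momilactone cluster, which were kept apart. This rule gave 230 of the 33277 genes listed in the authors' deposited tables. It reads only the notes, so a P450 gene whose note does not use these words is outside it.

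The study set Zn-inefficient rice genotypes beside Zn-efficient ones. RNA came from the crown, the junction of shoot and root where crown roots form. The 4 groups were Zn-inefficient genotypes (IR64, IR74 and Kinandang Patong) without Zn (-Zn, 0 µM ZnSO4), the same genotypes with Zn (+Zn, 1.5 µM ZnSO4), Zn-efficient genotypes (IR55179-3B-11-3, Nipponbare and RIL46) without Zn, and these with Zn. All plants grew for 8 days in Yoshida nutrient solution that held 1 mM KHCO3 and 0.1% agar, so bicarbonate was present in both Zn supplies. Each group has 3 libraries, 1 for each genotype, and the 12 libraries cover 6 genotypes. The libraries of a group are therefore different genotypes, not repeats of one genotype, and a p-value measures a difference against the spread between genotypes.

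Cytochrome P450s are heme enzymes that use electrons from an NADPH-dependent reductase to insert oxygen into small molecules. In plants they form one of the largest enzyme families. Different members act in the synthesis of hormones such as brassinosteroids and gibberellins, of lignin and flavonoids, of cutin and suberin monomers, and of defence compounds, among which the diterpenoid phytoalexins of rice are well known. Many P450 genes lie in tandem runs of close copies.

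The files hold the authors' DESeq2 comparisons, not values for single libraries. The authors' test asks whether a change exceeds 2-fold, and rose and fell are used below for an adjusted p under 0.05 in that test unless another test is named. A second test, computed from the deposited log2 fold changes and standard errors, asks for any change (2-sided normal p, Benjamini-Hochberg adjustment over all genes tested). Group means in normalized counts were derived from the authors' deposited tables, are approximate and carry no error of their own. Library depths are unknown, and in these bulk samples fewer cells of a type and less RNA per cell cannot be told apart. Reads shared between near-identical copies could have been split by the counting, which makes single values within tandem runs uncertain.

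Many P450 genes had low counts in the crown. Their median mean was 15.7 normalized counts per the authors' deposited tables, against 49.4 over all genes, and 104 of the 230 members had a mean of at least 20. Another 78 had a mean of 1 to 20, and 48 lay below 1. The highest means belonged to OS05G0320700, with 3955 normalized counts, to OS09G0441400, noted as similar to an elicitor-inducible P450, with 2963, and to OS11G0525200, noted as similar to the sterol demethylase P450 51, with 1598. These counts also depend on transcript length, so they give no order of abundance between genes.

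In Zn-inefficient genotypes 10 P450 genes rose in -Zn crowns and none passed the test for a fall. In the authors' deposited table for -Zn against +Zn crowns of inefficient genotypes, 10 of 144 tested members rose, which is 6.94%, against 2.42% of all genes tested. No member fell in that DESeq2 test, against 1.08% of all genes, and at an unadjusted p under 0.05 there were 19 higher members and 1 lower member. No share over all genes was worked out at an unadjusted p, here or below, so such counts have no baseline. The other 86 members were not tested in inefficient genotypes, mostly because of low counts. The median log2 fold change of the tested members was 0.71 per the authors' deposited table, against 0.00 over all genes, and 95 of the 144 members were higher in -Zn crowns. With the test of any change, 40 members were higher and 9 lower in -Zn crowns, or 27.8% and 6.25% of those tested, against 17% and 15.2% of all genes. With each SE widened by the spread of all genes' scores, a factor of 2.24, none of the 10 rises passed.

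In Zn-efficient genotypes only OS03G0658800 rose among 166 tested members per the authors' deposited table, and none fell in the DESeq2 test. The shares over all genes were 0.246% higher and 0.0345% lower. At an unadjusted p under 0.05, 6 members were higher and 1 was lower. With the test of any change, 19 members were higher and 1 lower in -Zn crowns of efficient genotypes, against 4.89% and 2.97% of all genes. The rise of OS03G0658800 did not pass with widened SEs. The median log2 fold change of tested members was 0.33, against -0.00 over all genes, worked out from the authors' deposited table. Of the 19 members higher in efficient genotypes by the test of any change, 15 were also among the 40 higher in inefficient genotypes, which is 78.9% of the first list and 37.5% of the second. The 2 classes share no library. The overlap was not worked out over all genes, so whether it is particular to P450 genes was not tested.

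Responses in the 2 classes were set side by side for the 103 members with a mean of at least 20 that were tested in both. Of these, 62 had a positive log2 fold change in both classes, or 60.2%, against 39.7% of all 19882 genes treated alike. The change was larger in size in inefficient than in efficient genotypes for 78 of the 103 members, or 75.7%, against 71.6% of all genes. The standard deviation of the log2 fold changes across members was 1.75 in inefficient and 0.818 in efficient genotypes, against 1.14 and 0.654 over all genes. The member spread includes OS01G0627800 and OS08G0508000, at 12.38 and 6.59 in inefficient genotypes. Both reached a mean of 20 only through their -Zn inefficient crowns, as did OS07G0217600, and these genes count in every member value of this paragraph. The spread without them was not worked out. A log2 fold change above 1 was found for 45 members in inefficient and 18 in efficient genotypes. These are 43.7% and 17.5% of the members, against 12.3% and 5.7% of all genes. Values below -1 were found for 7 and 2 members, or 6.8% and 1.94%, against 11% and 2.89% of all genes. Across the members, Pearson's r between the 2 classes was 0.287, as a description of these 103 genes.

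**Figure D1:**
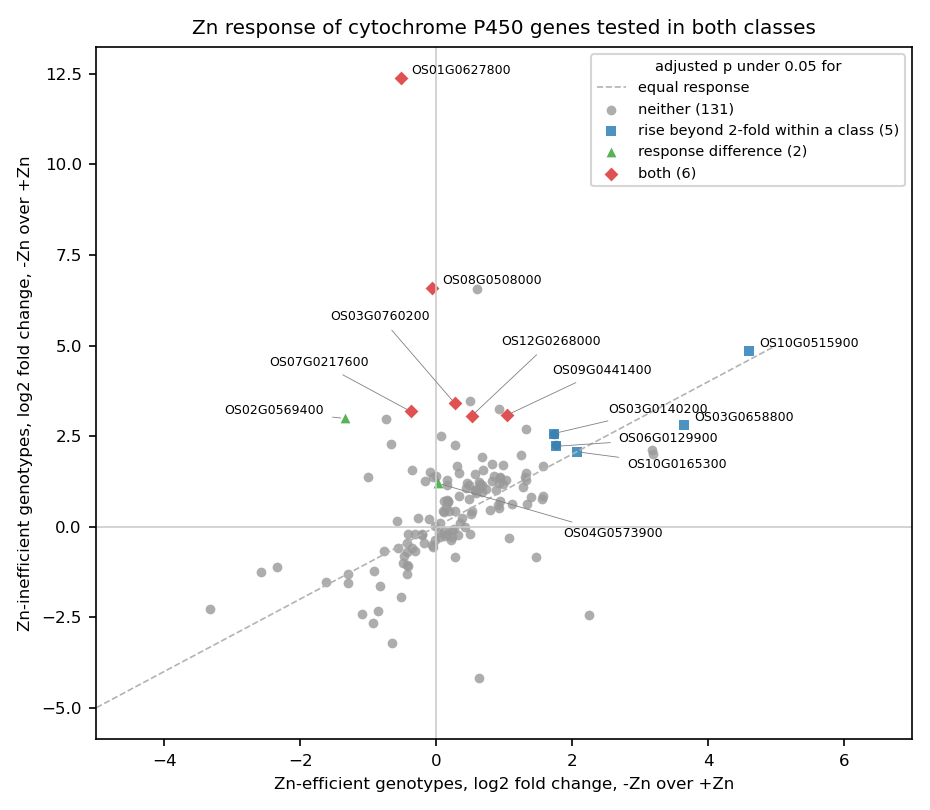
Log2 fold change of -Zn over +Zn crowns in Zn-inefficient genotypes (vertical axis) against that in Zn-efficient genotypes (horizontal axis) for the 144 P450 genes tested in both. Labelled points passed the authors' test beyond 2-fold in a class, the test of the difference between the classes, or both, and the points passing both lie far above the dashed line of equal response.

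The difference between the responses was tested directly, as the log2 fold change in inefficient genotypes minus that in efficient ones. It passed for 8 of 144 members, each with the larger value in inefficient genotypes, against 1.58% of all genes in that direction. None of the members passed with the smaller value, against 0.783% of all genes. At an unadjusted p under 0.05 the difference had 14 members larger and 3 smaller in inefficient genotypes. The 13 members called in any of these tests fall into a group of 8 whose response differed between the classes and a group of 5 that passed the 2-fold test in some comparison but not the test of the difference.

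**Figure D2:**
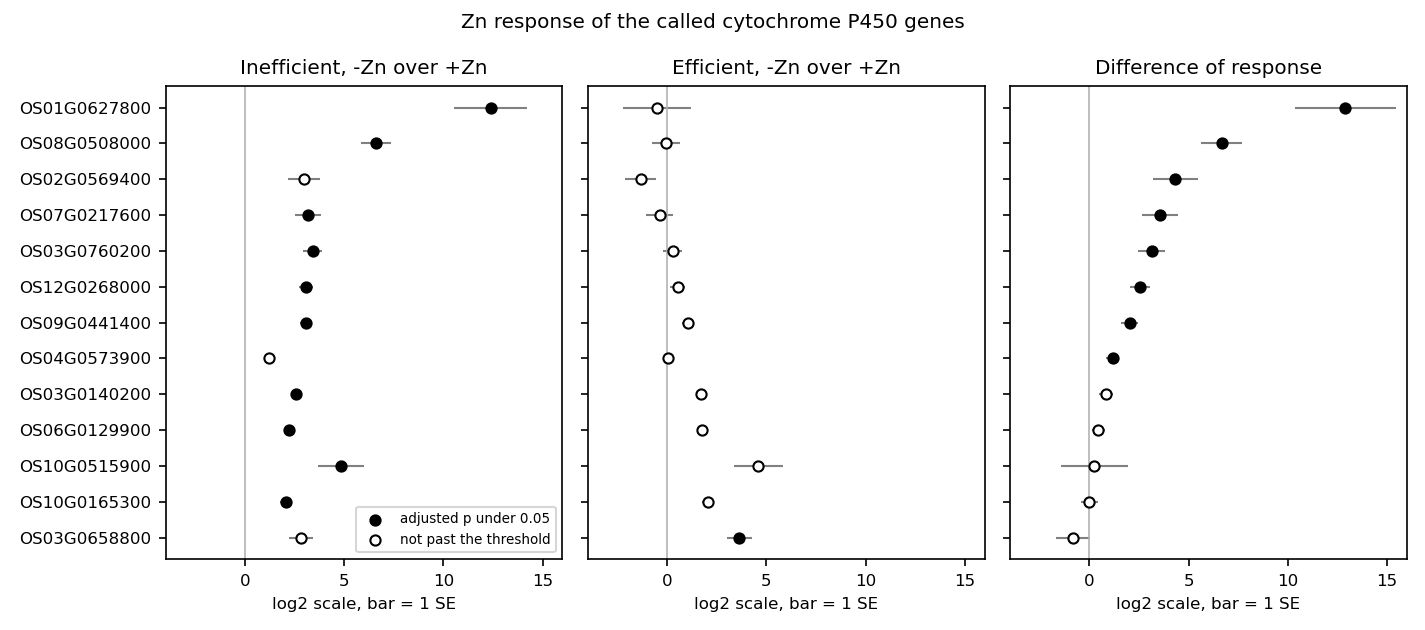
Log2 fold changes of -Zn over +Zn crowns in inefficient (left) and efficient genotypes (middle), and their difference (right), for the 13 called P450 genes. Points are values from or worked out from the authors' deposited tables, bars are 1 SE, and filled points have an adjusted p under 0.05.

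Of the 8 members whose response differed between the classes, 3 belonged to an annotated group. One was OS09G0441400, similar to an elicitor-inducible P450. Its derived group means from the authors' deposited tables were 7516 normalized counts in -Zn and 893 in +Zn crowns of inefficient genotypes, and 2315 in -Zn and 1130 in +Zn crowns of efficient genotypes. The -Zn inefficient group stood above the other groups, and -Zn efficient crowns were above their +Zn crowns as well. The log2 fold change was 3.07 with an SE of 0.31 in inefficient genotypes (DESeq2 adjusted p = 2.95e-09) and 1.04 with an SE of 0.31 in efficient ones (DESeq2 adjusted p = 1) per the authors' deposited tables. The difference of 2.04 (SE 0.43), worked out from the authors' deposited tables, had an adjusted p of 0.000551.

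OS12G0268000 is noted as similar to P450 71A1. It had derived means of 174 in -Zn and 20.7 in +Zn inefficient crowns, and 39.4 in -Zn and 27.4 in +Zn efficient crowns, from the authors' deposited tables. Only the -Zn inefficient mean exceeded 100 normalized counts. It rose by a log2 fold change of 3.07 (SE 0.35, DESeq2 adjusted p = 7.94e-07) in inefficient genotypes, and its value in efficient genotypes was 0.53 (SE 0.36, adjusted p = 1) per the authors' deposited tables. The difference was 2.54 (SE 0.51, adjusted p = 0.000182), worked out from the authors' deposited tables.

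OS01G0627800, noted as similar to CYP72A5, had the largest log2 fold change of the members tested. Its derived mean was 3426 normalized counts in -Zn inefficient crowns, 0.645 in +Zn inefficient crowns, 1.98 in -Zn efficient crowns and 2.83 in +Zn efficient crowns, from the authors' deposited tables. The means of the other 3 groups were all below 3 normalized counts. The log2 fold change was 12.38 (SE 1.86, DESeq2 adjusted p = 1.65e-07) in inefficient genotypes per the authors' deposited table, and -0.52 (SE 1.72, adjusted p = 1) in efficient ones. The +Zn mean lies below 1 count, so the size of this fold change is loosely set, and the difference of 12.89 worked out from the authors' deposited tables has an SE of 2.53 (adjusted p = 0.000145). Whether 1 or all 3 inefficient genotypes carried the high level cannot be told apart in these tables.

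The other CYP72A5-like members, which share that note, were more modest. By the test of any change OS01G0627400 (log2 fold change 1.99, SE 0.66, adjusted p = 0.011) and OS01G0728300 (3.46, SE 0.98, adjusted p = 0.00243) were higher in -Zn inefficient crowns, and OS01G0388000 was lower (-1.32, SE 0.34, adjusted p = 0.000758), worked out from the authors' deposited table. None of these passed the authors' 2-fold test. In the CYP92 and elicitor-inducible group, the CYP92C5-like OS03G0650200 was lower by the test of any change, at -2.34 (SE 0.84, adjusted p = 0.0194), worked out from the authors' deposited table. The CYP92A1-like OS09G0441100 had a mean of 1.22 normalized counts per the authors' deposited tables and was not tested for Zn.

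Of the other 5 members whose response differed between the classes, all carried notes that give no more than the P450 family or a similarity. OS08G0508000 had derived means of 191 and 1.98 normalized counts in -Zn and +Zn inefficient crowns, and 5.56 and 5.83 in -Zn and +Zn efficient crowns, from the authors' deposited tables. Its log2 fold change per the authors' deposited table was 6.59 in inefficient genotypes (SE 0.77, DESeq2 adjusted p = 9.35e-11), and -0.07 (SE 0.69) in efficient genotypes. The difference of 6.66 (SE 1.03) had an adjusted p of 1.18e-07, worked out from the authors' deposited tables. The +Zn inefficient mean of 1.98 is low, and how many of the inefficient genotypes carried the high -Zn level cannot be told from these tables. OS03G0760200 had derived means of 1377 in -Zn and 130 in +Zn inefficient crowns, and 139 in -Zn and 115 in +Zn efficient crowns, from the authors' deposited tables. The last 3 of these means lay close together, and only the -Zn inefficient crowns were far above them. It rose by 3.41 on the log2 scale in inefficient genotypes per the authors' deposited table (SE 0.48, DESeq2 adjusted p = 4.97e-05).

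OS07G0217600 was also highest in -Zn inefficient crowns, with derived means from the authors' deposited tables of 156 in -Zn and 17.3 in +Zn inefficient crowns, and 11.1 in -Zn and 14.4 in +Zn efficient crowns. Its rise in inefficient genotypes was 3.18 on the log2 scale per the authors' deposited table (SE 0.63, DESeq2 adjusted p = 0.0196). OS02G0569400 passed only the test of the difference. Its derived means from the authors' deposited tables were 173 in -Zn and 21.9 in +Zn inefficient crowns, and 24 in -Zn and 60.7 in +Zn efficient crowns. The classes thus had log2 fold changes of opposite sign, 2.99 (SE 0.80, DESeq2 adjusted p = 0.235) in inefficient and -1.34 (SE 0.80, adjusted p = 1) in efficient genotypes, per the authors' deposited tables. OS04G0573900 had log2 fold changes of 1.20 (SE 0.24) in inefficient and 0.03 (SE 0.24) in efficient genotypes per the authors' deposited tables, and neither passed the 2-fold test. The difference of 1.17 (SE 0.34) had an adjusted p of 0.0328, worked out from the authors' deposited tables.

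The other 5 called members were higher in -Zn crowns of both classes, and the difference between the classes did not pass for any of them. For OS03G0140200, similar to P450 86A1, a fatty acid omega-hydroxylase of the kind that makes cutin and suberin monomers, derived means were 968 in -Zn and 163 in +Zn inefficient crowns, and 723 in -Zn and 218 in +Zn efficient crowns, from the authors' deposited tables. Both -Zn means were above both +Zn means. It rose in inefficient genotypes, with a log2 fold change of 2.57 (SE 0.25, DESeq2 adjusted p = 4.31e-08), and had 1.73 (SE 0.25, adjusted p = 0.646) in efficient ones, per the authors' deposited tables. The difference of 0.84 (SE 0.35), worked out from the authors' deposited tables, had an adjusted p of 0.236.

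OS03G0658800 was the member that rose in efficient genotypes, with a log2 fold change of 3.64 (SE 0.61, DESeq2 adjusted p = 0.0075) per the authors' deposited table, and had 2.81 (SE 0.61, adjusted p = 0.0782) in inefficient ones. Its derived means were 94.8 in -Zn and 13.6 in +Zn inefficient crowns, and 147 in -Zn and 11.7 in +Zn efficient crowns, from the authors' deposited tables. The difference was -0.84 with an SE of 0.86 (adjusted p = 0.919), worked out from the authors' deposited tables. The fold change in efficient genotypes was thus the larger of the pair, by an amount smaller than its own SE.

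OS06G0129900, noted as similar to P450 CYPD, had log2 fold changes of 2.22 (SE 0.25, DESeq2 adjusted p = 6.35e-05) in inefficient and 1.76 (SE 0.24, adjusted p = 0.435) in efficient genotypes per the authors' deposited tables. OS10G0165300 had 2.06 (SE 0.30, DESeq2 adjusted p = 0.0126) in inefficient and 2.07 (SE 0.30, adjusted p = 0.0976) in efficient genotypes per the authors' deposited tables. Their values in the 2 classes were close, with differences of 0.45 (SE 0.35) and -0.01 (SE 0.42), worked out from the authors' deposited tables. OS10G0515900 had derived means of 37.8 in -Zn and 1.32 in +Zn inefficient crowns, and 23.9 in -Zn and 0.984 in +Zn efficient crowns, from the authors' deposited tables. Its log2 fold changes per the authors' deposited tables were 4.85 (SE 1.16, DESeq2 adjusted p = 0.0288) in inefficient and 4.60 (SE 1.23, adjusted p = 0.7) in efficient genotypes, with the +Zn means near 1 count.

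**Figure D3:**
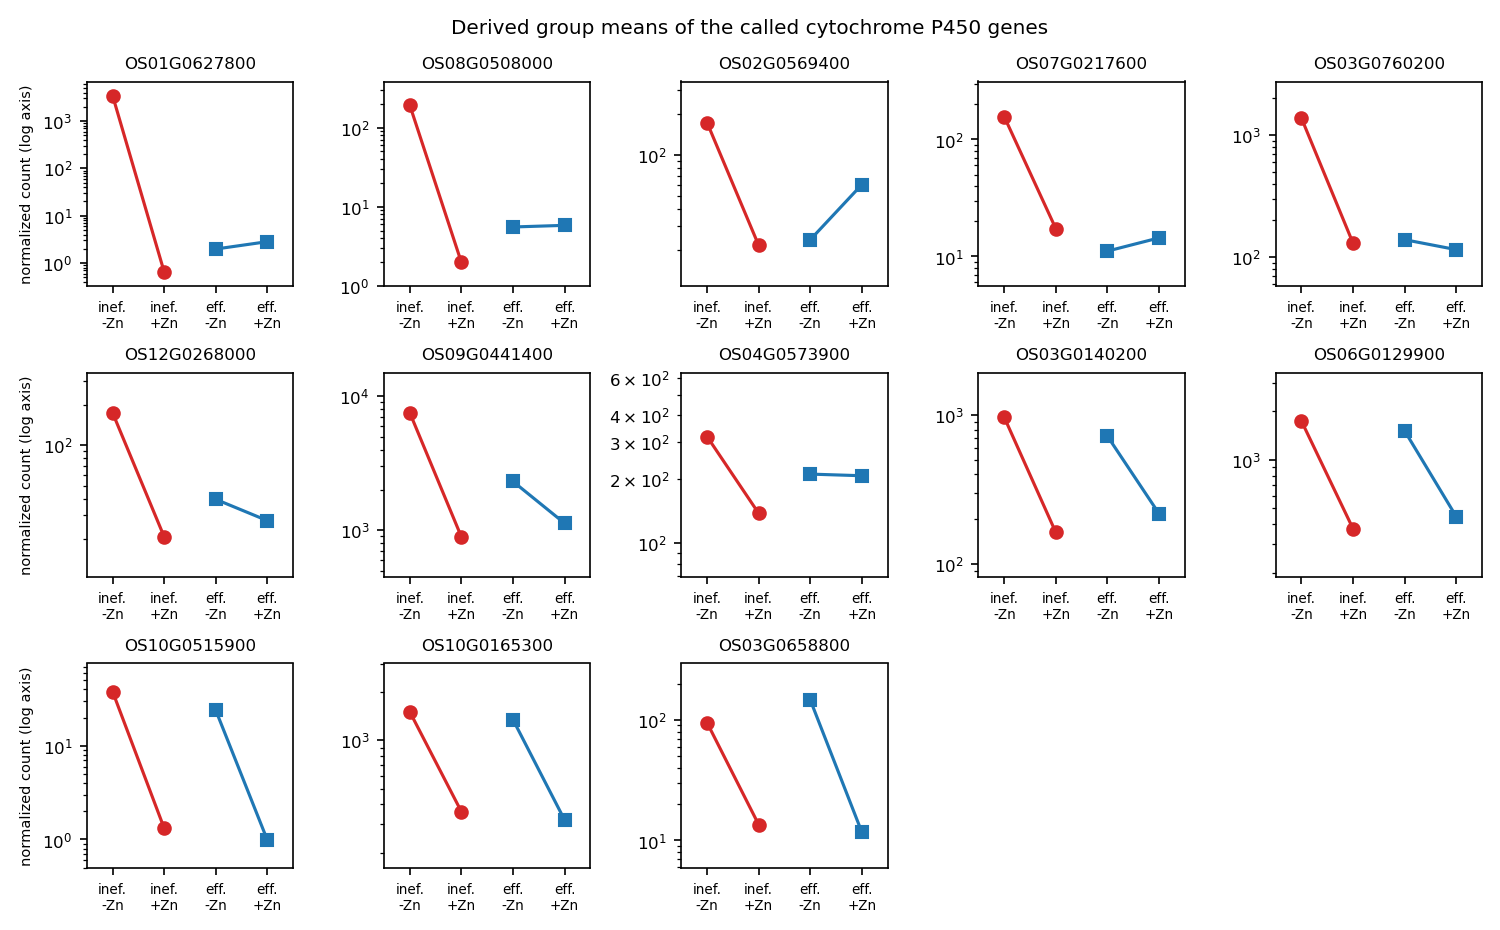
Derived mean normalized count (log axis, a scale of its own in each panel) of the 13 called P450 genes in -Zn and +Zn inefficient crowns (circles) and -Zn and +Zn efficient crowns (squares), with no error since the tables give no library values. In the first 8 panels the -Zn inefficient mean is the highest of the 4, and in the last 5 both -Zn means are higher than both +Zn means.

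With all genotypes pooled, 5 of 153 tested members rose and none fell per the authors' deposited table, against 0.922% and 0.197% of all genes. These were the 5 called members whose difference between the classes did not pass, and the pooled comparison uses the libraries of both within-class comparisons. At an unadjusted p under 0.05, 13 members were higher and 0 lower in -Zn crowns, and by the test of any change 52 were higher and 11 lower, of 153 tested, against 17.9% and 16.2% of all genes. With widened SEs none of the 5 pooled rises passed.

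A note gave a role or a subfamily for 55 members, in 12 groups, and 175 members had none. In the authors' deposited table for inefficient genotypes, members without such a note made 6 of the 10 rises. The rest fell on 4 groups with 1 rise each, the CYP72A5-like, CYP71-like, fatty acid and elicitor-inducible groups. These groups are small, with 2 to 4 members tested there, so no group share is given.

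**Figure D4:**
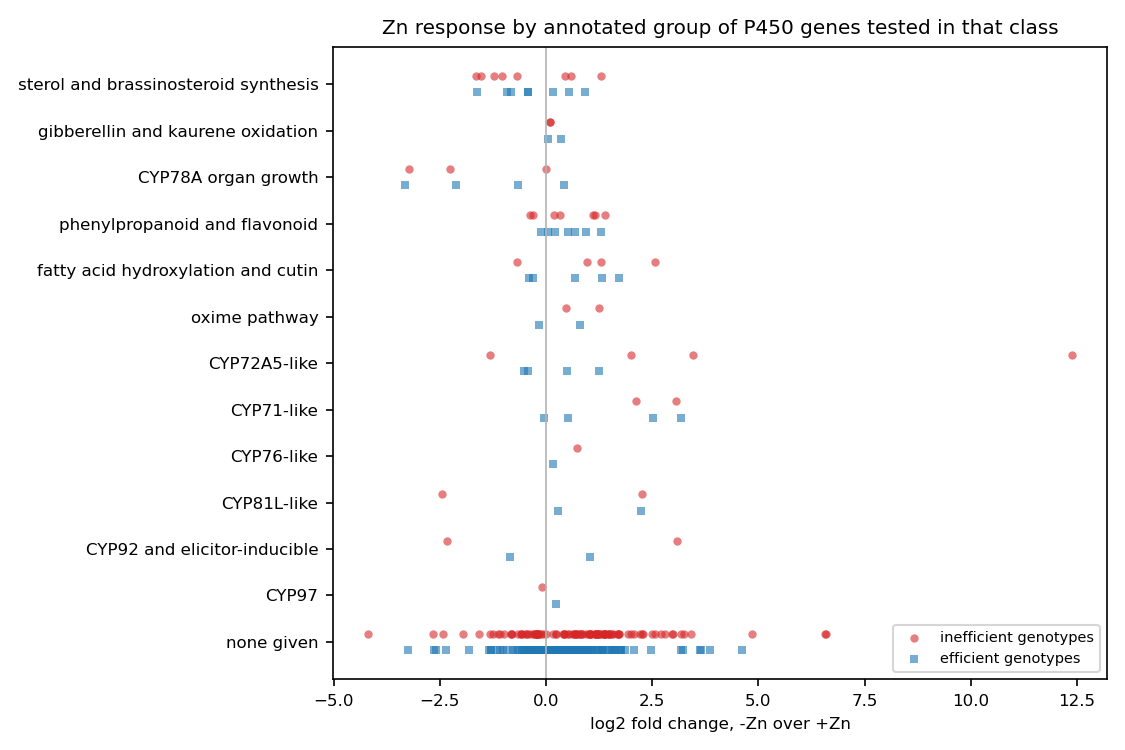
Log2 fold change of -Zn over +Zn crowns for tested P450 genes in each annotated group, with inefficient genotypes as circles above efficient genotypes as squares. The sterol and brassinosteroid group in inefficient genotypes has 5 of 8 values below 0, and the CYP72A5-like value of 12.38 lies apart from all others.

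Fatty acid hydroxylases of cutin and suberin synthesis had 7 members, of which 4 were tested in inefficient genotypes. Besides OS03G0140200, the CYP86B1 gene OS10G0486100 was higher in -Zn crowns by the test of any change in both classes, with log2 fold changes of 1.30 (SE 0.29, adjusted p = 7.46e-05) in inefficient and 1.32 (SE 0.29, adjusted p = 0.000347) in efficient genotypes, worked out from the authors' deposited tables. The other P450 86A1-like gene, OS01G0854800, had 0.96 (SE 0.43) in inefficient and 0.68 (SE 0.43) in efficient genotypes, and the anther cutin gene OS03G0168600 had -0.68 (SE 1.27) and -0.31 (SE 1.28), per the authors' deposited tables. Neither passed either test.

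Among the 7 phenylpropanoid and flavonoid members, none passed the authors' 2-fold test in either class, and both flavonoid 3',5'-hydroxylase-like genes were higher in -Zn crowns by the test of any change. OS03G0367200 had log2 fold changes of 1.38 (SE 0.23, adjusted p = 7.03e-08) in inefficient and 0.95 (SE 0.23, adjusted p = 0.00195) in efficient genotypes, worked out from the authors' deposited tables. For OS03G0367101 they were 1.11 (SE 0.30, adjusted p = 0.00138) and 1.28 (SE 0.30, adjusted p = 0.000954), worked out from the authors' deposited tables. The P450 98A1-like gene OS05G0494000, of a subfamily that hydroxylates the ring of lignin precursors, stayed near 0, with 0.20 (SE 0.15) in inefficient and -0.11 (SE 0.15) in efficient genotypes per the authors' deposited tables.

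Hormone-related members did not pass the 2-fold test, and several were lower by the test of any change. Of 8 sterol and brassinosteroid genes tested in inefficient genotypes, 3 were lower and none higher by that test, against 15.2% of all genes lower. Their median log2 fold change was -0.87 per the authors' deposited table, and -0.30 over the 6 with a mean of at least 20, of which 3 were positive. With all genotypes pooled, 2 of the 8 tested were higher and 4 lower by the test of any change, against 17.9% and 16.2% of all genes. The 3 lower in inefficient genotypes were OS12G0139300, similar to P450 90A1 of brassinosteroid synthesis (-1.64, SE 0.39, adjusted p = 0.000228), OS03G0602300, the brassinosteroid C6-oxidase P450 85A1 (-1.22, SE 0.37, adjusted p = 0.00461), and OS11G0525200, similar to the sterol demethylase P450 51 (-1.05, SE 0.21, adjusted p = 6.74e-06), worked out from the authors' deposited table. In efficient genotypes the same genes had -0.82, -0.92 and -0.42 per the authors' deposited table, with no call, and their differences between the classes did not pass. The CYP90D10-like OS05G0200400 had positive values, 0.44 (SE 0.26) in inefficient and 0.53 (SE 0.25) in efficient genotypes per the authors' deposited tables, and passed neither test there.

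Gibberellin-related members showed little change. The ent-kaurene oxidase OS06G0570100, an early enzyme of gibberellin synthesis, had log2 fold changes of 0.10 (SE 0.29) in inefficient and 0.34 (SE 0.29) in efficient genotypes per the authors' deposited tables. The CYP714B3-like OS03G0332100 had 0.10 (SE 0.25) and 0.05 (SE 0.25) per the authors' deposited tables.

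The CYP78A genes, a subfamily known for setting organ size and the pace of leaf initiation, had negative medians in both classes, -2.27 over 3 members tested in inefficient genotypes and -1.39 over 4 tested in efficient ones, per the authors' deposited tables. CYP78A9, OS03G0134500, had derived means of 152 in -Zn and 730 in +Zn inefficient crowns, and 97.8 in -Zn and 985 in +Zn efficient crowns, from the authors' deposited tables. Both -Zn means were below both +Zn means. It was lower in both classes by the test of any change, at -2.27 (SE 0.67, adjusted p = 0.004) in inefficient and -3.33 (SE 0.68, adjusted p = 7.21e-05) in efficient genotypes, and it passed the authors' 2-fold test in neither, worked out from the authors' deposited tables. In both pooled comparisons OS03G0134500 had no p-value, for a reason not stated. CYP78A11, OS10G0403000, whose note names leaf initiation rate, was lower in inefficient genotypes by the test of any change (-3.23, SE 0.81, adjusted p = 0.000455) and had -0.65 (SE 0.71) in efficient ones, worked out from the authors' deposited tables. The difference of -2.58 (SE 1.08), worked out from the authors' deposited tables, had an adjusted p of 0.243. The P450 78A1-like OS08G0547300 had -0.00 (SE 0.56) in inefficient and 0.43 (SE 0.55) in efficient genotypes per the authors' deposited tables, and CYP78A13, OS07G0603700, was too low in count to be tested in inefficient genotypes.

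The remaining annotated groups held no Zn call in either class by the authors' test. The oxime-pathway gene OS03G0570100, similar to the tyrosine N-monooxygenase P450 79A1, had log2 fold changes of 1.25 (SE 0.73) in inefficient and -0.16 (SE 0.73) in efficient genotypes per the authors' deposited tables. OS12G0512800, P450 71E1, had 0.47 (SE 0.56) and 0.79 (SE 0.55) per the authors' deposited tables. The CYP76H18-like OS10G0167250 had 0.72 (SE 0.37) and 0.15 (SE 0.37), and OS02G0173100 of the CYP97 group had -0.10 (SE 0.23) and 0.23 (SE 0.23), per the authors' deposited tables. The CYP81L6-like OS02G0504000 had 2.25 in inefficient and 0.27 in efficient genotypes with an SE of 1.75 for each, and OS02G0503700, with the same note, had -2.45 (SE 1.31) and 2.24 (SE 1.33), per the authors' deposited tables. Of the CYP71-like genes besides OS12G0268000, the CYP71Y10-like OS06G0640800 had 2.12 (SE 1.47) in inefficient and 3.17 (SE 1.52) in efficient genotypes per the authors' deposited tables, at a mean of 4.21 normalized counts. OS04G0171800 and OS10G0171500 had no p-value in the within-class tables.

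P450 genes often stood next to each other. In identifier order, 35 runs of at least 2 neighbouring P450 loci held 92 of the members, and 14 runs of at least 3 held 50 of them. No run had 2 members called the same way by the authors' test, within either class or between the classes in -Zn crowns. The longest run, of 6 loci from OS01G0627400 to OS01G0627933, contains OS01G0627800. Its members OS01G0627500 and OS01G0627600 had log2 fold changes of 3.25 (SE 0.79, DESeq2 adjusted p = 0.109) and 6.57 (SE 1.80, adjusted p = 0.0551) in inefficient genotypes, and 0.93 (SE 0.78) and 0.60 (SE 1.63) in efficient ones, per the authors' deposited tables. The last of the run, OS01G0627933, had similar values of 1.36 (SE 0.78) and 1.31 (SE 0.78) per the authors' deposited tables. All 6 values were positive in inefficient genotypes. Among them OS01G0627900, at 2.51 (SE 4.33), had a mean of only 0.26 normalized counts and no adjusted p, per the authors' deposited tables.

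A second stretch, from OS02G0569000 to OS02G0572050, held 6 P450 members among 3 loci noted as diterpene synthases. Both stretches were chosen after their values were seen. OS02G0569000, OS02G0569400 and OS02G0569900 had log2 fold changes of 1.36 (SE 0.94), 2.99 (SE 0.80) and 2.29 (SE 1.04) in inefficient genotypes, and -1.01 (SE 0.95), -1.34 (SE 0.80) and -0.67 (SE 1.04) in efficient ones, per the authors' deposited tables. The synthase-like OS02G0570400, similar to ent-kaurene synthase 1A, had 2.97 (SE 0.79) in inefficient and -0.72 (SE 0.79) in efficient genotypes per the authors' deposited tables. Its difference of 3.70 (SE 1.11) passed, with an adjusted p of 0.0407, as did that of the P450 gene OS02G0569400 in this stretch, worked out from the authors' deposited tables. The differences of OS02G0569000 and OS02G0569900, 2.37 (SE 1.33) and 2.95 (SE 1.47), did not pass, worked out from the authors' deposited tables.

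**Figure D5:**
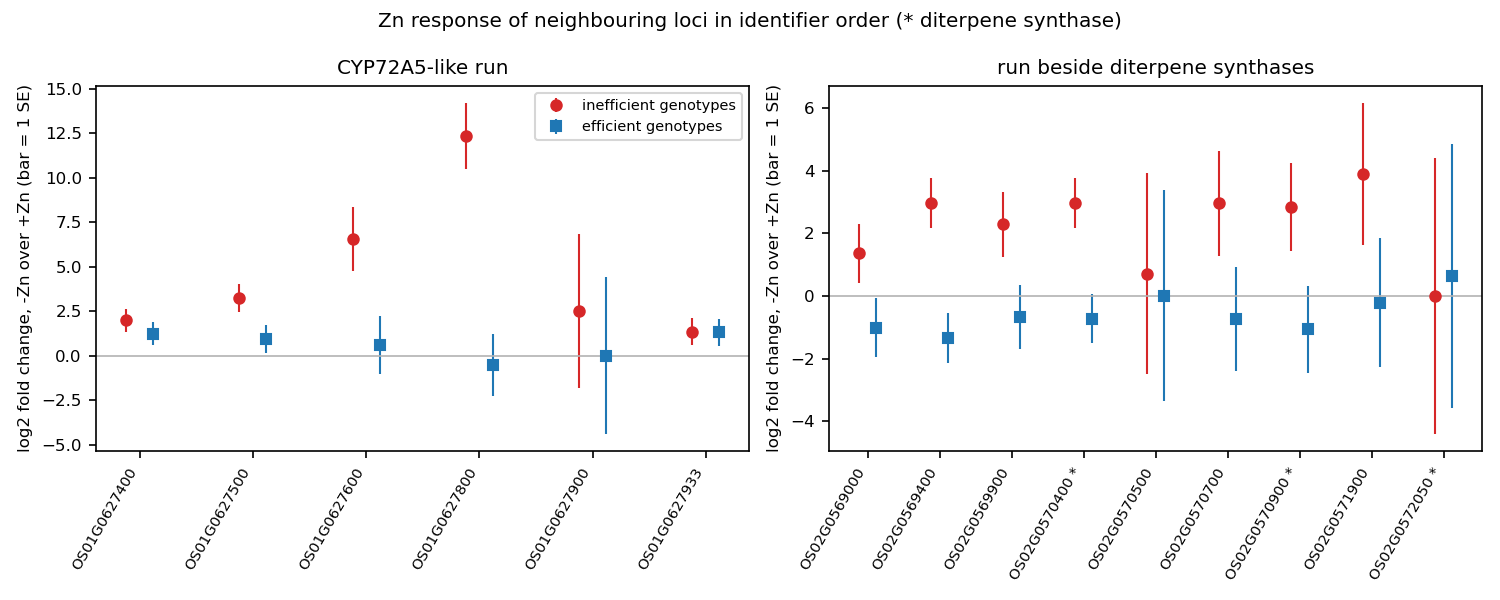
Log2 fold change of -Zn over +Zn crowns, with bars of 1 SE, for the P450 run with OS01G0627800 (left) and the P450 loci beside diterpene synthases (right), in inefficient (circles) and efficient genotypes (squares). In the right panel the inefficient values are above 0 for all loci except OS02G0572050, whose mean lies below 1 normalized count. The means of OS01G0627900 (left) and OS02G0570500 (right) also lie below 1.

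Comparing the classes at one Zn supply, 4 of 227 tested members were higher in inefficient than in efficient genotypes in -Zn crowns, against 0.274% of all genes, and none was lower, against 0.0246%, per the authors' deposited table. They were OS01G0627800, with a log2 difference of 10.76 (SE 1.65, DESeq2 adjusted p = 4.29e-06), OS08G0508000, with 5.10 (SE 0.60, adjusted p = 2.1e-08), OS07G0217600, with 3.82 (SE 0.65, adjusted p = 0.00692), and OS03G0760200, with 3.31 (SE 0.48, adjusted p = 0.000895), per the authors' deposited table. This comparison shares the -Zn inefficient libraries with the Zn response of that class. OS12G0268000 had 2.14 (SE 0.33, adjusted p = 0.176) and OS09G0441400 had 1.70 (SE 0.31, adjusted p = 1) per the authors' deposited table. At an unadjusted p under 0.05, 9 members were higher and 1 lower in inefficient genotypes, and by the test of any change 9 were higher and 2 lower, which is 3.96% and 0.881% of those tested, against 2.44% and 1.6% of all genes. Of the 103 tested members with a mean of at least 20, 61 had a negative value in -Zn crowns, with a median of -0.23. Of the 19882 genes treated alike, 9762 were negative and the median was 0.01, per the authors' deposited table.

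In +Zn crowns no member differed between the classes in the authors' DESeq2 table, against 0% of all genes higher and 0.00923% lower. At an unadjusted p under 0.05, 0 members were higher and 1 was lower in inefficient genotypes, and the test of any change called 0 in both directions, against 0.0185% of all genes higher and 0.0492% lower. Of the 103 tested members with a mean of at least 20, 76 had a negative value in +Zn crowns, with a median of -0.29, against 10197 of 19882 genes and a median of -0.01 over all genes, per the authors' deposited table. With both supplies pooled no member was called, against 0.0339% of all genes higher and 0.0185% lower, there was none at an unadjusted p under 0.05, and the test of any change called 0 higher and 3 lower, against 0.333% and 0.471% of all genes, all from or worked out from the authors' deposited table. Of the 100 members with a mean of at least 20 tested there, 65 were negative, with a median of -0.13. Of the 19859 genes treated alike, 9824 were negative and the median was 0.00, per the authors' deposited table.

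Genes that work with P450s were counted from their notes. None of the 3 reductase genes rose by the authors' test. By the test of any change 2 were higher in inefficient and 1 in efficient genotypes, against 17% and 4.89% of all genes, and none was lower. OS08G0243500 had the highest values, at 1.15 (SE 0.17) in inefficient and 0.65 (SE 0.17) in efficient genotypes per the authors' deposited tables. Of 13 genes noted for cytochrome b5, another electron donor, none rose and 1 fell in inefficient genotypes per the authors' deposited table, against 1.08% of all genes that fell. By the test of any change 4 were higher and 3 lower there, against 17% and 15.2% of all genes. None of the 8 diterpene synthase genes rose or fell, and their median log2 fold change was 1.93 in inefficient and -0.72 in efficient genotypes per the authors' deposited tables. The test of any change called 2 of them higher and 1 lower in inefficient genotypes, and none in efficient ones. Outside the naming rule, 5 further ent-kaurene oxidase genes were noted, and OS06G0569500, whose note places it in diterpenoid phytoalexin synthesis, rose in inefficient genotypes (3.44, SE 0.76, DESeq2 adjusted p = 0.0392) per the authors' deposited table. The momilactone P450 OS04G0178400 had 1.65 (SE 0.76) in inefficient and -0.57 (SE 0.76) in efficient genotypes per the authors' deposited tables. Of 3 tryptophan decarboxylases, whose product feeds serotonin synthesis, none rose or fell by the authors' test, and 1 was higher in inefficient genotypes by the test of any change. The difference between the classes passed for OS08G0140500, at 1.73 (SE 0.49, adjusted p = 0.0242), worked out from the authors' deposited tables. UDP-glucosyltransferases, which add sugars to such products, had 7 rises among 80 tested of 106, and glutathione S-transferases 2 among 35 tested of 46, in inefficient genotypes per the authors' deposited table, against 2.42% of all genes tested.

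Marker genes of other cell types were read in the same tables. A search of the notes for RCc3 or root-specific proteins, RCc2 included, matched 7 genes. Among them OS01G0691600 is a DNA repair helicase, not a root marker, whose note holds the name ERCC3. Summed derived means of the 7 were 1978 in -Zn and 4440 in +Zn inefficient crowns, and 4252 in -Zn and 4501 in +Zn efficient crowns, from the authors' deposited tables. The helicase makes up 641 in -Zn and 655 in +Zn inefficient crowns, and 556 in -Zn and 605 in +Zn efficient crowns. None of the 7 passed the 2-fold test, and none had a mean below 1. All 6 tested in inefficient genotypes were negative, the helicase among them at -0.03 (SE 0.11). By the test of any change 3 were lower and none higher there, against 15.2% and 17% of all genes. Both dividing-cell genes, noted as proliferating cell nuclear antigen and MCM10, summed to 301 in -Zn and 1397 in +Zn inefficient crowns, and 460 in -Zn and 1165 in +Zn efficient crowns, from the authors' deposited tables, and 1 of the 2 fell in inefficient genotypes. The 16 green leaf genes summed to 5845 in -Zn and 6041 in +Zn inefficient crowns, and 5262 in -Zn and 4640 in +Zn efficient crowns, from the authors' deposited tables, 1 of them had a mean below 1, and none passed the 2-fold test in either class. The marker genes' part in the P450 results was not tested.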

How the data were processed

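Per the submitters' processing notes, reads passed through tools the authors list as Trimmomatic 0.36, FastQC 0.11.5, HISAT2 2.0.4, Subread 1.5.0-p3 (featureCounts) and DESeq2 1.12.3, on build IRGSP-1.0. Which release of the gene annotation was used is not stated in the labels. The authors deposited 6 comparison tables, and per the file headers each holds the mean normalized count (a signal), the log2 fold change and its SE, the test score, the p-value and the adjusted p-value. No table used here holds values for single libraries, so depth per library is unknown.

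Computed here, with matplotlib 3.10.9, scipy 1.17.1, numpy 2.4.6, pandas 2.3.3 and Python 3.11.15, were approximate group means, used where the 4 contrasts closed within 0.01 on the log2 scale, the test of any change, and the difference of the 2 within-class log2 fold changes over the root of their summed squared SEs (2-sided normal p, Benjamini-Hochberg over all genes tested in both). The 2-fold test and the difference between the classes were tested on simulated data with noise drawn from the deposited SEs, which cannot check the SEs themselves. The group means and the test of any change within a comparison were not simulated. Members called were named in full where there were 8 or fewer in a direction, otherwise the 8 largest. Up to 4 members of each annotated group and the 3 with the highest mean were also named. Members and lists were chosen with earlier results of these data known. After the tables were read, the cytochrome b5 list was narrowed to exclude b561 and b559, and oxidases were taken out of the diterpene synthase list. Groups of P450s were taken from the annotation notes alone. The alternatives were a stricter adjusted p, a minimum mean of 20, no filter on low counts (added after the data were seen), the test of any change, and SEs rescaled by the spread of all scores.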

Additional observations from a re-analysis of the deposited data

Results flagged for a closer look

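For 8 P450 genes the Zn response differed between inefficient and efficient genotypes by a direct test of the difference (inefficient minus efficient log2 fold change, computed from the authors' deposited tables). The value was 12.89 for OS01G0627800, 6.66 for OS08G0508000, 4.33 for OS02G0569400, 3.55 for OS07G0217600 and 3.14 for OS03G0760200. It was 2.54 for OS12G0268000, 2.04 for OS09G0441400 and 1.17 for OS04G0573900. All 8 had the larger value in inefficient genotypes. Since groups hold 1 library per genotype, how each genotype contributes was not analysed here.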

How the results depend on the processing

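No paired analysis was possible because the deposited tables hold no values for single libraries, and leaving out a genotype was not possible for the same reason. With the test of any change in place of the 2-fold test, the calls numbered 49 in inefficient genotypes, 20 in efficient genotypes and 63 with all genotypes pooled, 11 between the classes in -Zn crowns and 3 with both supplies pooled. With SEs widened by the spread of all scores there were 0 calls in each of the 3 Zn comparisons (DESeq2 values otherwise as deposited). The 14 of 26 single-gene calls that this setting removed all belong to these comparisons. The 12 that stayed come from the classes in -Zn crowns, with a factor of 0.967, and from the difference, with 1.00. Their SEs were thus not widened in practice, so this setting could not test them. For the difference between the classes, an adjusted p under 0.01 left 5 of 8 calls and a difference beyond 2-fold left 2. An adjusted p under 0.01 also left 7 of the 10 rises in inefficient genotypes. Those lost were OS07G0217600 (DESeq2 adjusted p = 0.0196), OS10G0165300 (adjusted p = 0.0126) and OS10G0515900 (adjusted p = 0.0288). All other counts of calls stayed within 1.5 times the value given. A minimum mean of 20 took out OS10G0515900, whose mean lies below it, so that the rises numbered 9 in inefficient genotypes and 4 with all genotypes pooled. The other 25 of 26 single-gene calls held under that minimum, and all 26 held with no filter on low counts. OS01G0627800, OS08G0508000 and OS07G0217600 met the minimum only through their -Zn inefficient crowns, and OS03G0658800 only through its -Zn crowns. The minimum thus could not test the calls of these genes. Promoter motifs and protein signatures were not run. The tables give no depth, so low-count members may go untested without being unaffected.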
